A study of Mus musculus with 5 samples.

Results

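The genes described here are 9 subunits and regulators of class I phosphoinositide 3-kinase (PI3 kinase): the inhibitor Pik3ip1, the catalytic subunits Pik3ca, Pik3cb, Pik3cd and Pik3cg, the regulatory subunits Pik3r1 and Pik3r5, the lipid phosphatase Inpp5d and the effector kinase Akt1. They were taken by gene symbol from a table of 14457 symbols, all 9 had a single row, and all 9 were among the 12777 genes that passed the filter on low values (2 or more libraries at 10 or above). RNA had been measured in CD45+ cells sorted from mouse lung, taken 3 days after irradiation in mice with tumours of MC38, a colon adenocarcinoma line of the mouse. The treatment label gives 3 control libraries (ctrl) and 2 libraries from irradiated mice (IR), and in both groups the tumour label reads MC38/MC38 tumors. The sources used here give no strain, sex, age or radiation dose, and do not say whether each library is a separate animal or whether ctrl mice were sham-irradiated, so p-values measure the spread between these libraries, which may be technical. The series title speaks of immune suppression and metastasis after radiotherapy. Comparing IR with ctrl asks how lung leukocytes of these mice differed after irradiation.

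Class I PI3 kinases sit under the plasma membrane of leukocytes and add a phosphate to the lipid PIP2, which makes PIP3. PIP3 recruits kinases such as Akt, and Akt in turn holds FOXO transcription factors out of the nucleus and activates mTORC1. The delta and gamma isoforms are known for their high expression in leukocytes, where delta acts below antigen receptors and cytokine receptors and gamma below chemoattractant receptors, while alpha and beta are found in most tissues. Pik3ip1 is a transmembrane protein that binds the catalytic subunit and restrains it, and is known in resting T cells.

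The 9 genes were chosen by name, with the fold changes between IR and ctrl libraries already in view, and Pik3ip1 was known to be among those with the largest decreases of the genes that passed the all-gene test. What follows on their difference between the groups is therefore a description, with no test read from it. Levels are called scaled read counts, because the deposited values have 1 decimal and were taken here as read counts per gene scaled between libraries. Each fold change compares IR with ctrl as log2(value + 1), with the standard error (SE) of the fit across all genes.

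The promoter windows of Pik3ip1 and Pik3r5 are shown because these genes had the lowest and the highest log2 fold change of the 9. Both are from RefSeq on GRCm38.p6, run from 250 bases before the start of transcription to 50 after it, and read 5′ to 3′ on the gene's strand, with the transcribed bases in capitals. The window of Pik3ip1 is chr11:3330481-3330780 and that of Pik3r5 chr11:68431875-68432174, both on the plus strand.
Pik3ip1: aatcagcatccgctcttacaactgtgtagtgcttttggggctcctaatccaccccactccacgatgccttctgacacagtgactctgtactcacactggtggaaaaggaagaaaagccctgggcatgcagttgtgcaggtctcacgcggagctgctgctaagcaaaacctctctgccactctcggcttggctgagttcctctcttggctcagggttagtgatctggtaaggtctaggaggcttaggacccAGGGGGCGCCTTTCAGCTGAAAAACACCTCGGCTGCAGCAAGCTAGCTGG
Pik3r5: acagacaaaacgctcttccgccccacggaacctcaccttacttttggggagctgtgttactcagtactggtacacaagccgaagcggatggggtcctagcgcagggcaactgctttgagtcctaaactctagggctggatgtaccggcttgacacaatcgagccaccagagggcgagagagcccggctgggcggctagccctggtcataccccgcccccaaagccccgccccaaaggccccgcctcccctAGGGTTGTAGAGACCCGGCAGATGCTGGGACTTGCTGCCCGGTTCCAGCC
The Pik3ip1 window holds 7 CG pairs and the Pik3r5 window 16, beside a median of 19 over the 13823 windows of genes in the table. All 9 genes matched the RefSeq windows, with 14 windows among them. A search for 3 motifs on both strands, whose matches did not overlap, found GTAAACA, a core bound by FOXO factors, in 2 of the 14 windows, against 2.81% of the windows of all genes in the table. These were a window of Pik3cg, 92 bases before the start, and a window of Akt1, 161 bases before it. CCGGAAG, a core bound by ETS factors, was in 1 window (Pik3ca, 47 bases before the start; 16.1% of all) and GGGTGTG, a core bound by Krüppel-like factors, in 0 (8.33% of all). None of the 3 lay in the windows of Pik3ip1 or Pik3r5, which says only that these letters are not there.

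Pik3ip1 (chromosome 11, 3330401 to 3342971) had the largest difference of the 9 genes. In ctrl its scaled read count was 639, 777 and 713, against 273.9 and 133.6 in IR. Both IR libraries lay below all 3 ctrl libraries, and IR replicate 2 was the lower of the pair. The ctrl mean was 710 ± 69.2 (SD, n = 3) and the IR mean 204 ± 99.2 (SD, n = 2), 28.7% of the ctrl mean. The log2 fold change was -1.88 ± 0.31 (SE), rank 702 from the lowest among the 12777 genes tested. Set singly against the ctrl mean, IR replicate 1 stood at -1.37 and IR replicate 2 at -2.40. Dividing by the smallest step between values put about 293 and 160 reads behind the IR values and 758 to 982 behind the ctrl values. Pik3ip1 shares 91 bases (2.13% of its exons) with Gm12592, a transcript on the opposite strand, whose own values ran from 0 to 31.4.

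**Figure D1:**
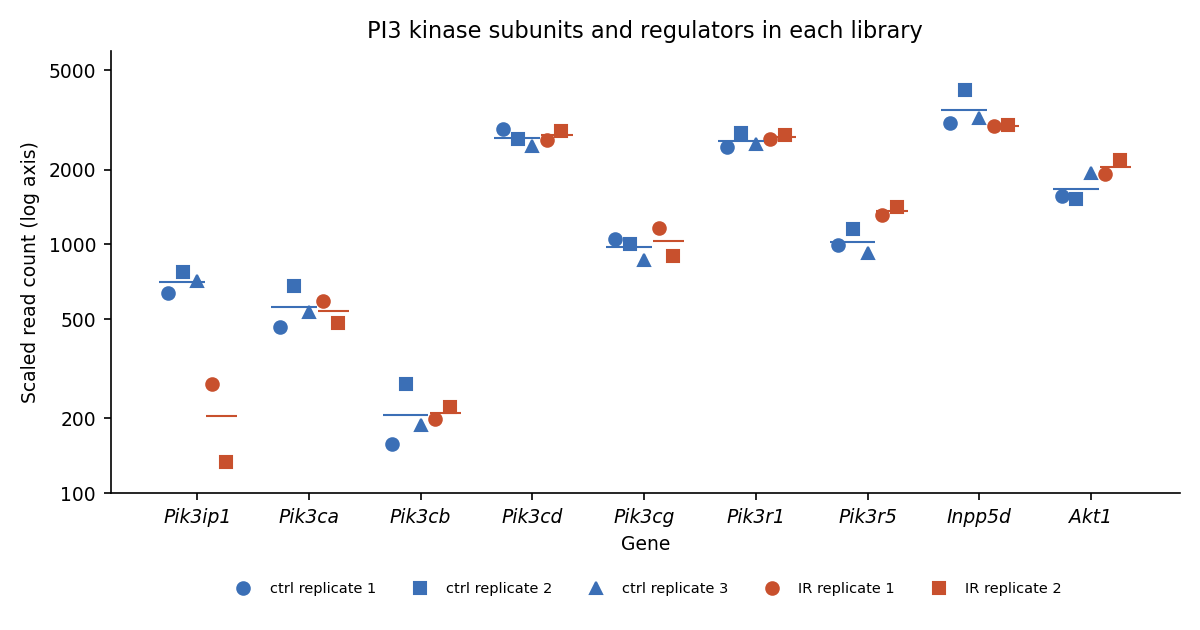
Scaled read count (log axis) of each of the 9 genes in each library, ctrl in blue and IR in red, with a short line at each group mean. Pik3ip1 lies at 273.9 and 133.6 in IR and between 639 and 777 in ctrl, while the IR points of Pik3ca, Pik3cb, Pik3cd, Pik3cg, Pik3r1 and Akt1 overlap with those of ctrl.

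Of the 9 genes, 1 passed the limma threshold across all genes (adjusted p under 0.05), and 8 did not; over all 12777 genes tested, 1.5% passed (0.36% lower in IR and 1.14% higher). The 1 was Pik3ip1, which the choice of genes had used, so nothing is read from this count. It no longer passed when ctrl replicate 2 was left out or when the mean trend was left out of the fit, a setting under which 0 genes passed and 1245 had an unadjusted limma p under 0.05. The libraries of the groups did not overlap for 3 of the 9 genes (Pik3ip1 and Inpp5d lower, Pik3r5 higher in IR), while 31.5% of all genes tested did not overlap, 16.3% lower and 15.2% higher. The median log2 fold change was 0.06 for the 9 genes and -0.05 for all genes.

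**Figure D2:**
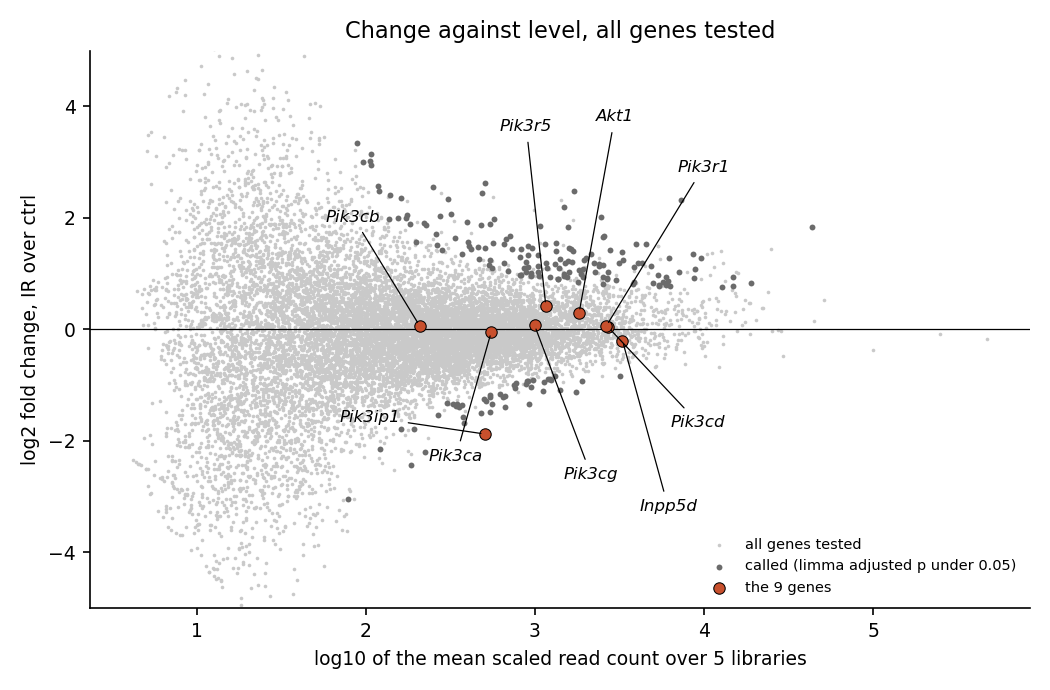
log2 fold change, IR over ctrl, against the log10 of the mean scaled read count, for all genes tested (light grey), genes that passed the limma threshold (dark grey) and the 9 genes (red, labelled); 6 genes lie outside the axis. Pik3ip1 sits at -1.88, and the other members lie between -0.20 and 0.42.

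The catalytic subunits had nearly the same mean level in both groups. Pik3cd (chromosome 4, 149649168 to 149702571), the delta isoform, was 2903, 2640 and 2484 in ctrl and 2635 and 2860 in IR. The IR values lay inside the ctrl range, with a log2 fold change of 0.04 ± 0.19 (SE). Pik3cg (chromosome 12, 32173473 to 32208659), the gamma isoform, was 1048, 1000.3 and 869 in ctrl and 1161 and 896 in IR. IR replicate 1 was above all ctrl libraries and IR replicate 2 was within them, and the log2 fold change was 0.07 ± 0.23 (SE). Pik3ca (chromosome 3, 32397671 to 32468486), the alpha isoform, was 465, 680 and 537 in ctrl and 593 and 485 in IR, or -0.05 ± 0.27 as a log2 fold change (SE). Its groups overlapped throughout. Pik3cb (chromosome 9, 99036654 to 99140621), the beta isoform, was the member with the lowest mean count in ctrl and the widest log2 range there, at 157, 275 and 188 there and 198 and 223 in IR (0.06 ± 0.39, SE). Scaling to library totals moved the median of all genes by -0.12, and with it the sign of the fold changes of Pik3cb, Pik3cd, Pik3cg and Pik3r1 turned (-0.06, -0.08, -0.05 and -0.06), so no direction is given for these 4.

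Within each library, the shares of the 4 catalytic subunits do not change with a single scaling factor per library, although the deposited values drift from whole multiples of a step, and an adjustment that varies with level could change them. Values were divided by the length of each gene's merged exons (GENCODE vM21), since levels of different genes can be set side by side only per length. Pik3cd took 67.5% ± 2.82 of the summed value per kilobase in ctrl (SD, n = 3), against 67.6% ± 4.199 in IR (SD, n = 2). Pik3cg took 18.2% ± 0.598 in ctrl and 18.8% ± 3.34 in IR. Pik3ca and Pik3cb took 9.76% ± 1.88 and 4.54% ± 1.27 in ctrl, and 9.12% ± 1.25 and 4.51% ± 0.390 in IR. The delta isoform thus led in all 5 libraries, from 64.5% to 70.6%, and for all 4 genes the groups' means differed by less than the larger of the group SDs.

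**Figure D3:**
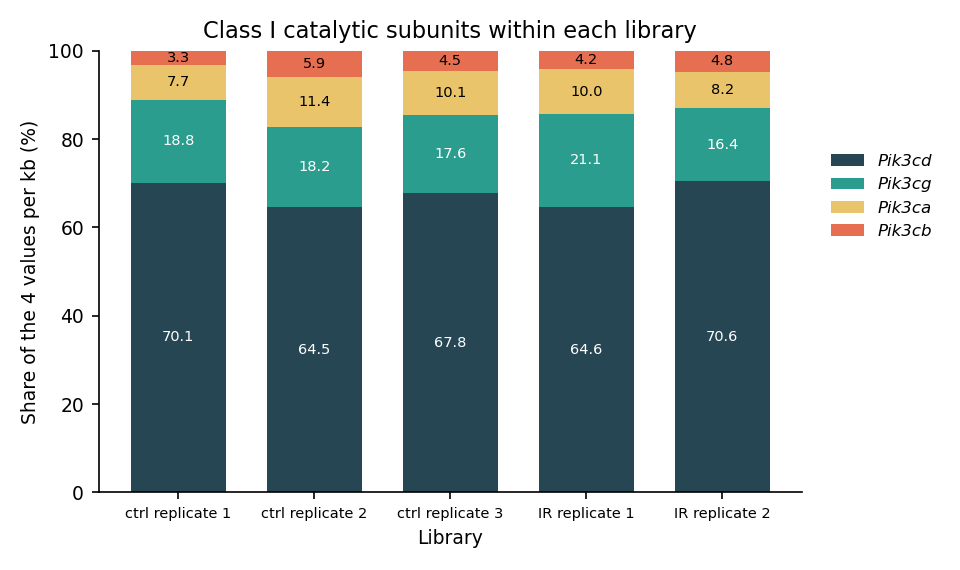
Share of each class I catalytic subunit in the sum of the 4 values per kilobase of exon (%), one bar per library. Pik3cd takes 64.5% to 70.6% in the 5 libraries and Pik3cb 3.31% to 5.85%.

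Of the regulatory subunits, Pik3r1 had IR values within the ctrl range and Pik3r5 had IR values above it. Pik3r1 (chromosome 13, 101680563 to 101768217), which encodes the p85 alpha subunit that stabilises the alpha, beta and delta isoforms, was 2459, 2810 and 2527 in ctrl and 2645 and 2761 in IR. Its log2 fold change was 0.06 ± 0.19 (SE). Pik3r5 (chromosome 11, 68432121 to 68497849), which encodes the p101 adaptor that couples the gamma isoform to G protein beta-gamma subunits, was 991, 1154 and 927 in ctrl and 1312 and 1416 in IR. Both IR libraries were above all 3 ctrl libraries, with means of 1024 ± 116.8 (SD, n = 3) and 1364 ± 73.5 (SD, n = 2) and a log2 fold change of 0.42 ± 0.22 (SE). They stayed above after scaling to library totals, where the log2 fold change was 0.30. Pik3r5 did not pass the all-gene threshold.

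Set against its own partner within a library, Pik3r5 minus Pik3cg (a difference of log2 levels) was -0.08, 0.21 and 0.09 in ctrl and 0.18 and 0.66 in IR. IR replicate 1 lay below ctrl replicate 2, so these groups overlapped. Pik3r1 minus Pik3cd was -0.04 ± 0.17 in ctrl (SD, n = 3), against -0.02 ± 0.04 in IR (SD, n = 2).

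Inpp5d and Akt1 stand on the far side of the kinase. Inpp5d (chromosome 1, 87620312 to 87720507) encodes SHIP1, a phosphatase of blood cells that removes a phosphate from PIP3 and so draws down the product of PI3 kinase. It was 3081, 4156 and 3217 in ctrl and 2991 and 3009 in IR. The IR libraries lay just below the lowest ctrl library, and ctrl replicate 2 stood far above the others; the log2 fold change was -0.20 ± 0.20 (SE), and -0.07 without ctrl replicate 2. Akt1 (chromosome 12, 112653821 to 112674884), the kinase that PIP3 brings to the membrane, was 1559, 1527 and 1940 in ctrl and 1910 and 2179 in IR. IR replicate 1 lay below ctrl replicate 3, so the groups overlapped, with a log2 fold change of 0.29 ± 0.20 (SE). Among these 9 genes, the 8 other than Pik3ip1 had log2 fold changes from -0.20 to 0.42, and 5 of them were within 0.1 of 0 on that scale. Their IR libraries differed from each other by a median of 0.14 (absolute log2 difference), against 0.60 over all genes tested. These genes also had higher levels than most. Their lowest ctrl mean was 207 (Pik3cb), while the median value of a library was 99.2 to 108.95. Genes of like level were not compared, so nothing about steadiness is read from this.

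Ordered by level per kilobase of exon in ctrl, Inpp5d (458 ± 77.0, SD, n = 3), Pik3cd (427 ± 33.9) and Akt1 (409 ± 56.1) led, and the ctrl libraries of neighbours in this trio overlapped. Pik3r1 followed at 258 ± 18.4, below every ctrl value of Akt1. Pik3r5 (184.5 ± 21.0) and Pik3ip1 (166 ± 16.2) came next and overlapped with each other. Pik3cg (115 ± 11.02), Pik3ca (61.7 ± 12.02) and Pik3cb (28.8 ± 8.49) closed the order, each below all ctrl values of the gene before it. In IR, Pik3ip1 stood at 47.7 ± 23.2 (SD, n = 2), rank 8 in place of rank 6, between Pik3ca (59.3 ± 8.37), with which its libraries overlapped, and Pik3cb (29.3 ± 2.41). Akt1 came first there at 499 ± 46.4, then Pik3cd at 439 ± 25.4 and Inpp5d at 395 ± 1.67, with no overlap between neighbours.

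Fewer cells of a type and less RNA per cell cannot be told apart in these bulk libraries, and marker lists moved with Pik3ip1. The defining markers of leukocytes, among them Ptprc, which encodes CD45, were all 5 present, with a summed value of 34425 to 39112 in ctrl and 42983 to 54352 in IR. Of 17 T cell markers, all in the table and none listed at 0 in all libraries, 2 fell (Cd3g and Lef1), 0 rose and 15 did not pass the limma test; their sum was 9692 to 11049 in ctrl and 5298 to 6785 in IR. Of 14 B cell markers, 1 fell, 0 rose and 13 did not pass, and their sums overlapped (16298 to 28288 in ctrl, 13415 to 19674 in IR). Of 15 neutrophil markers, 6 rose, 0 fell and 9 did not pass, with sums of 31974 to 57044 in ctrl and 79064 to 153500 in IR. The 15 epithelial markers, of cells that the sort should remove, summed to 23733 to 27607 in ctrl and 56061 to 115330 in IR, and 1 of them, the club cell gene Scgb1a1, rose (limma) and was the largest part of the sum in each library. In the other 10 cell type lists no gene passed, but in some of them the sums of the groups did not overlap. The 10 alveolar macrophage markers summed to 7149.8 to 7672.1 in ctrl and 4539.9 to 6017.3 in IR, and 9 of 10 had negative fold changes. The 8 classical monocyte markers summed to 24715 to 29759 in ctrl and 34218 to 36733 in IR. The 5 basophil and mast cell markers tested had low sums, 104.3 to 115.7 in ctrl and 132.6 to 320.7 in IR. Of 15 early response genes of tissue dissociation, 2 rose, 0 fell and 13 did not pass, while 14 had positive fold changes with a median of 0.47. Their sum was 98993 to 117740 in ctrl and 122320 to 174380 in IR, the highest being IR replicate 2, which also had the lowest Pik3ip1 value. The part of these lists in the Pik3ip1 difference was not tested.

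Pik3ip1 was also lower when set beside T cell markers of its own library. The log2 level of Pik3ip1 minus the mean log2 level of the 17 T cell markers was 0.41, 0.99 and 0.77 in ctrl and -0.10 and -0.63 in IR. The groups did not overlap, and the means differed by -1.09, compared with -1.88 for Pik3ip1 itself. Against the 14 B cell markers the same difference was -0.36 ± 0.53 in ctrl (SD, n = 3), against -1.68 ± 0.49 in IR (SD, n = 2). Against single T cell genes, singled out after their values were seen, the group means differed by -0.54 for Lef1, -1.13 for Cd3e, -1.27 for Tcf7 and -1.60 for Il7r. For Pik3ip1 the means differed by -1.09, -1.32, -3.41 and -2.28 against T cell, B cell, neutrophil and leukocyte markers, IR minus ctrl. For Pik3r5 the same differences were 1.21, 0.98, -1.11 and 0.02. The size and, for Pik3r5, the sign thus depended on the list it was set against. The part of cell composition in either gene's difference was not tested beyond these values.

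**Figure D4:**
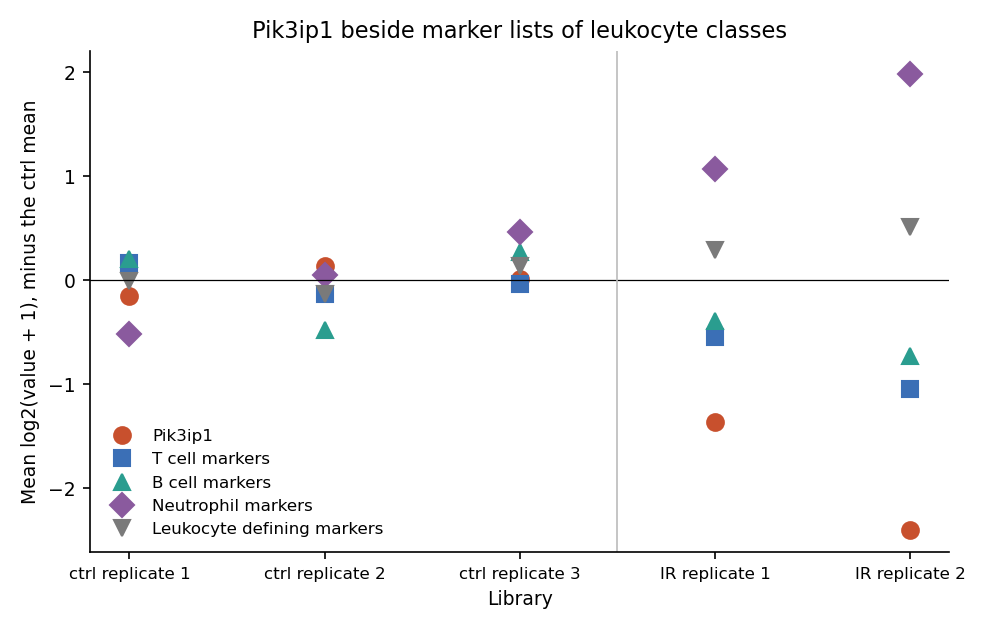
Pik3ip1 and the means of 4 marker lists in each library, as log2(value + 1) minus the mean of the 3 ctrl libraries. In IR replicates 1 and 2, Pik3ip1 lies at -1.37 and -2.40, the T cell list at -0.54 and -1.04 and the neutrophil list at 1.07 and 1.99.

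The genes whose pattern over the 5 libraries was most like that of Pik3ip1 were Maml2, Grap2, Dpy19l3, Snx29 and Cd3d. Likeness was the root mean square distance between log2 profiles, each centred on its own mean, among 7263 genes with a mean of at least 100. The 5 distances ran from 0.213 for Maml2 to 0.250 for Cd3d, against a median of 1.01 over all genes compared. These 5 were kept because their distances were the smallest, so their place below the median follows from that choice. Maml2 was 459, 561 and 525 in ctrl and 280.4 and 89.9 in IR, so that IR replicate 2 was again the lower. Cd3d, which encodes CD3 delta and is one of the 17 T cell markers, was 143.7, 218 and 153 in ctrl and 95.3 and 32.7 in IR.

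Beyond the 9 genes, 113 other genes of the pathway were set out in 8 lists, and 109 of them were tested. Of these, 3 fell, 1 rose and 105 did not pass the limma test, so that 3.67% passed beside 1.5% of all genes. The lists were chosen with earlier results of these data known, and genes of like level were not compared. Nothing is therefore read from this share. The median log2 fold change was -0.03, beside -0.05 over all genes. All 4 that passed lost their call when any one ctrl library was left out (0 of 109 passed in each of these 3 runs). With IR replicate 1 left out 10 passed, and with IR replicate 2 left out 2 passed.

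Among 22 effectors that bind PIP3 or act directly below it, 2 fell, 1 rose and 19 did not pass. Cyth3, an exchange factor for ARF proteins whose PH domain binds PIP3, was 803, 542 and 624 in ctrl and 261 and 279.9 in IR, that is, -1.26 ± 0.28 on the log2 scale (SE; limma adjusted p = 0.0247). Both IR libraries were less than every ctrl library. Arap3, a PIP3-regulated GTPase-activating protein, rose from 281, 396 and 388 in ctrl to 616 and 1005 in IR (1.16 ± 0.29, SE; limma adjusted p = 0.0410). Without IR replicate 2, neither Arap3 nor Inpp5f passed (limma adjusted p = 0.370 and 0.180).

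Of 16 phosphoinositide phosphatases other than Inpp5d, 1 fell, 0 rose and 15 did not pass; their median log2 fold change was 0.18. Inpp5f, which encodes the phosphatase SAC2, fell from 557, 350 and 396 in ctrl to 199 and 142 in IR (-1.34 ± 0.34, SE; limma adjusted p = 0.0435).

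No gene passed in the other 6 lists. Among 12 tested regulatory subunits and adaptors, Irs2, the insulin receptor substrate, had a log2 fold change of -0.36 (limma adjusted p = 0.375) and Pik3ap1, the adaptor BCAP, of -0.04 (0.959), with IR replicates on either side of ctrl (3069 and 5516, against 3860 to 4840). Per kilobase, the other partner of the gamma isoform, Pik3r6, was 32.5 ± 15.5 in ctrl (SD, n = 3), against 31.7 ± 15.2 in IR (SD, n = 2), well under Pik3r5. Of 6 tested genes of class II and class III PI3 kinases, which make other phosphoinositides, 5 had negative and 1 positive fold changes. The positive one was Becn1, a partner of the class III enzyme in autophagy, at 0.49 (limma adjusted p = 0.309); Uvrag, another such partner, was at -0.20 (0.708).

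Of 14 tested Akt kinases, activators and phosphatases, Sgk1, a kinase related to Akt, had a log2 fold change of -0.27 (limma adjusted p = 0.628) and Rictor, the mTORC2 scaffold, of -0.56 (0.299). Phlpp1, a phosphatase that removes an activating phosphate from Akt, was picked out after its values were seen; it was 617, 666 and 578 in ctrl and 283 and 344 in IR (-0.99 ± 0.27, SE; limma adjusted p = 0.0655), and it passed after scaling to library totals. Of 16 genes of the mTORC1 branch, Sesn2, an inhibitor of mTORC1, was at 0.60 (limma adjusted p = 0.253) and Eif4ebp2, a repressor of translation that mTORC1 inactivates, at 0.15 (0.822). Of 10 other Akt substrates, Cdkn1a, the cell cycle inhibitor p21, was at 0.37 (limma adjusted p = 0.391) and Gsk3b at -0.18 (0.766).

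FOXO factors and their lymphocyte targets split in both directions. Of 13 tested, 5 had positive and 8 negative fold changes and the median was -0.04. Foxo1, a FOXO factor of lymphocytes, was also singled out after its values were seen. Foxo1 was 2364, 2361 and 2651 in ctrl and 1654 and 1289 in IR (-0.75 ± 0.20, SE, limma adjusted p = 0.0599). It did not pass here, although both IR libraries were below all ctrl libraries, and it did pass after scaling to library totals, with a pseudocount of 5, with array weights and without IR replicate 1. Foxo3, of the same list, went the other way, with both IR libraries above all ctrl libraries. Foxo3 was 1265, 1611 and 1448 in ctrl and 1755 and 2560 in IR (0.56 ± 0.22, SE, limma adjusted p = 0.210). Txnip had a log2 fold change of 0.08 (limma adjusted p = 0.872).

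**Figure D5:**
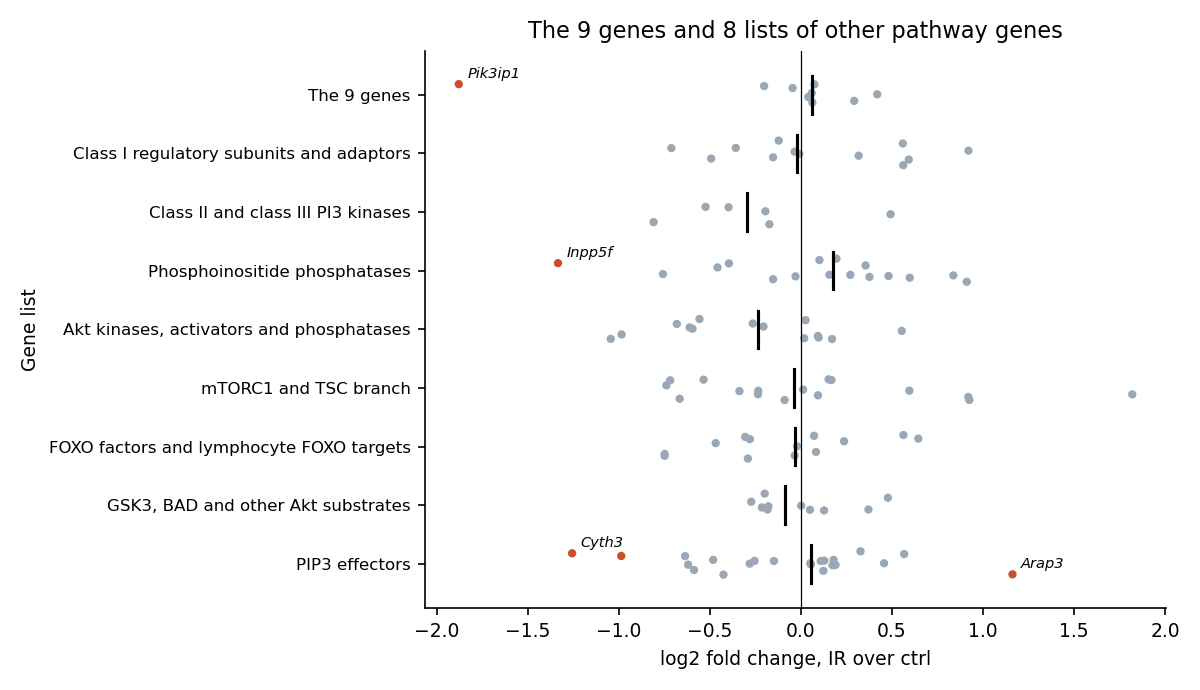
log2 fold change, IR over ctrl, of the 9 genes and of the genes tested in 8 pathway lists, one point per gene, with red for genes that passed the limma threshold and a black bar at each median; the 4 genes named in the plot are those described in the text. Pik3ip1, Inpp5f and Cyth3 lie to the left and Arap3 to the right; the list medians run from -0.30 for class II and class III PI3 kinases to 0.18 for the phosphatases.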

How the data were processed

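RNA from CD45+ lung cells (3 ctrl and 2 IR libraries) was made into libraries with a stranded total RNA kit for small inputs, per the labels' protocols. HISAT2, HTSeq and the build mm10 are named per the submitters' processing notes; the sources used here do not give the annotation, strand setting, scaling or filters. The values the authors deposited are a signal with 1 decimal, taken here as read counts scaled between libraries. Low values were near multiples of 1 step per library (86.1% to 100% of low values within 0.1 of a step), so no count test was run. Totals were 7232126 to 8414753, about 8030000 to 10230000 reads.

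The 12777 of 14462 rows that reached 10 in 2 or more libraries were fitted as log2(value + 1) with limma 3.58.1 (R 4.3.3, statmod 1.5.0; mean trend, robust), two-sided, with Benjamini-Hochberg adjustment over all genes. An exact permutation of 3 against 2 libraries cannot go below p = 0.1. The procedure was tested on simulated data. The 9 genes and the 24 lists were chosen with earlier results of these data known. Named genes are all 9, per pathway list up to 4 genes that passed or else the 2 with the highest mean, and 5 genes with profiles like Pik3ip1. Some genes that this rule names are not reported here. Coordinates are from GENCODE vM21 (GRCm38, the assembly of mm10). Alternatives covered scaling, pseudocount, filter, robust and trend settings, array weights, gene length and each library left out.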

Additional observations from a re-analysis of the deposited data

How the results depend on the processing

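With 192 genes passing (146 higher, 46 lower), the count kept within 1.5 times of this under every scaling, pseudocount and filter tried, with robust estimation off and with array weights; scaling to library totals gave 143 higher and 116 lower. It fell to 0 with the mean trend off and ran from 19 to 1006 with single libraries left out. The log2 fold change of Pik3ip1 ran from -2.40 to -1.37 with single libraries left out, and it passed in all runs but those without ctrl replicate 2 (adjusted p = 0.0700) and with the mean trend off (-1.88, 0.410). The 4 other pathway genes became 1 with no filter on low values or with robust estimation off, 0 with the mean trend off, and 0 to 10 with single libraries left out. Where a call was lost, the cause was not tested. The difference in catalytic share, IR minus ctrl in percentage points, was 0.09 for Pik3cd and 0.59 for Pik3cg, and ran from -2.88 to 3.06 and from -1.78 to 2.95 with single libraries left out, runs that were chosen after seeing the data. With the longest transcript as length, the ctrl ranks became 5 for Pik3ip1, 6 for Pik3r5, 2 for Akt1 and 3 for Pik3cd. No paired analysis was possible because the labels number no replicates; the numbers used here follow the order of deposit and only name the libraries. Among the 9 genes, the fewest reads behind a value were about 160 for Pik3ip1 (IR replicate 2) and 187 for Pik3cb (ctrl replicate 1). Depth was not the only limit. Inpp5d, with about 3655 to 4556 reads in ctrl, still had an SD of 16.8% of its mean there.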

Other observations

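Akt2, another kinase of the Akt family, was lower than Akt1 in every library. Per kilobase of exon, Akt1 was 409 ± 56.1 and Akt2 77.0 ± 2.35 in ctrl (SD, n = 3). In IR, Akt1 was at 499 ± 46.4 and Akt2 at 82.6 ± 10.6 (SD, n = 2). The log2 fold change of Akt2 was 0.10, and it did not pass (limma adjusted p = 0.898).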
